A study of Homo sapiens with 18 samples.

Results

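The genes described here are 37 targets and regulators of the transcription factor NRF2, together with genes of glutathione synthesis, NADPH supply and iron and haem handling. They were taken from a named list, and a gene was measured where a probe set of the array mapped to that symbol alone. This held for 35 of the 37 genes, among 15529 named genes on the array, and each of the 35 had 1 probe set. FTH1, the ferritin heavy chain, and BACH1, a repressor that competes with NRF2 for DNA, had no such probe set and were not analysed here.

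The samples were 18 Affymetrix arrays of total RNA from U-87MG, an established line of human glioblastoma cells, in 6 groups of 3. Every group had been infected with lentivirus and selected with puromycin, carrying either the expression vector pLX301 alone (called control here) or pLX301 with the cDNA of IL4I1, a secreted enzyme that oxidises phenylalanine, tyrosine and tryptophan and releases hydrogen peroxide and ammonia. Every group also carried a second lentiviral insert, either a non-targeting hairpin (shCtrl) or a hairpin (shAHR1 or shAHR2) that knocks down AHR, the aryl hydrocarbon receptor, so no group was free of vector or hairpin. All cells grew for 120 h before RNA was taken, and the labels call the 3 arrays of a group biological replicates from independent experiments. Whether the stable lines were pools or clones, and from how many infections each came, the labels leave unsaid.

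NRF2, encoded by NFE2L2, is held at low levels by KEAP1, an adaptor that presents it for degradation. Oxidants and electrophiles modify cysteines of KEAP1, NRF2 then accumulates, pairs with a small MAF protein and binds antioxidant response elements near its target genes. Its targets make glutathione and thioredoxin, supply NADPH, detoxify quinones and export conjugates, and break down haem and store the iron released. AHR is a second sensor of small molecules, binds a different DNA element, and shares some detoxification targets with NRF2, of which NQO1 is the best known. In this design the 3 backgrounds allow the IL4I1 difference in these genes to be compared between cells with normal and with reduced AHR. RNA was measured, so NRF2 protein, its location and glutathione itself were not.

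Array medians lay between 6.46 and 6.53 on the log2 scale and arrays correlated with each other between 0.865 and 0.954. AHR lay between 9.84 and 10.33 on the 6 shCtrl arrays and between 7.45 and 8.16 on the 12 hairpin arrays. IL4I1 lay between 5.27 and 6.43 on the 9 control arrays and between 12.67 and 13.01 on the 9 IL4I1 arrays, so both genes followed the labels. Replicate 2 of the shCtrl control cells spread most around the gene medians: the interquartile range of its relative log expression was 0.529, and the other 17 arrays had 0.319 to 0.472. Of 5 markers of mesenchymal glioma lines, VIM, CD44, FN1 and SPARC lay at the 98.7th to 99.9th percentile of an array and LGALS1 at the 74.3rd. Of 6 measured astroglial markers, SLC1A3 lay at the 73.9th percentile, and GFAP, ALDH1L1, NES, AQP4 and OLIG2 between the 28.6th and 45.7th. The 3 measured leukocyte markers lay between the 32.5th and 50.6th percentile and the 3 epithelial ones between the 34.7th and 59.0th, although probe sets of different genes are not on 1 scale.

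The antioxidant response element was looked for in the 250 bases before the start of each gene, as the letters TGACNNNGC on either strand, in the RefSeq promoter table of assembly GRCh38.p14, which held 29 of the 35 genes. The letters were found before 7 of the 29 (24.1%) and before 11.0% of all 27305 promoters in the table. Among genes that rose with IL4I1 in the averaged comparison described below, 3 of 15 held them, and among the rest 4 of 14. A match is a description of letters and not a shown binding site, and a missing match says only that the letters are not in this window. Shown here are 2 genes that rose, TXNRD1 (chr12:104215529-104215778, plus strand) and GCLM (chr1:93909431-93909680, minus strand), and 2 that did not pass the test, ME1 (chr6:83431052-83431301, minus strand) and GSTP1 (chr11:67583562-67583811, plus strand), with the matching letters in capitals and each sequence read 5′ to 3′ towards the gene.
TXNRD1: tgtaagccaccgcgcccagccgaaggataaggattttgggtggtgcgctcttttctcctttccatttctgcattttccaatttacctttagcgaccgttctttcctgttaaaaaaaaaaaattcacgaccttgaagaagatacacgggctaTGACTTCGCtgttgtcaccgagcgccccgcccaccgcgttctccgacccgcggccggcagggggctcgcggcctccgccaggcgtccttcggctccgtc
GCLM: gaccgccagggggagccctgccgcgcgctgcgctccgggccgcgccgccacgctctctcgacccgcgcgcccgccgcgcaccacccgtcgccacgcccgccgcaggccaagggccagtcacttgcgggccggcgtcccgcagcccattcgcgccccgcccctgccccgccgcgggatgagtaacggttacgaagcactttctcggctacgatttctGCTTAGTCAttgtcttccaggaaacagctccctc
ME1: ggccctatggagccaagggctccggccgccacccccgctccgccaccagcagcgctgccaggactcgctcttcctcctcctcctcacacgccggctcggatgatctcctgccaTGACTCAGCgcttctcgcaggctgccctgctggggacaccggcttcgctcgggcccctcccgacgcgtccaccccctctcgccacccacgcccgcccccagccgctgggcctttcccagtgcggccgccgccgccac
GSTP1: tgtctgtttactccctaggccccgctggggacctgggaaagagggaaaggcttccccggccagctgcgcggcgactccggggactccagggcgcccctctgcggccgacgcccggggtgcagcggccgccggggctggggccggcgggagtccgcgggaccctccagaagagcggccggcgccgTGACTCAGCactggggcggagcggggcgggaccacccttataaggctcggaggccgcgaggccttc
The match began 99 bases before the start of TXNRD1, 34 before GCLM, where it lies on the opposite strand, 137 before ME1 and 66 before GSTP1. ME1 and GSTP1 held the same 9 letters, TGACTCAGC, which contain the AP-1 letters TGACTCA, and neither gene was called. The other matches were before PGD, ABCC4 and CBR1. The core letters of the AHR element, GCGTG, were found before 13 of the 29 (44.8%) and before 31.9% of all promoters.

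With IL4I1, averaged over the 3 hairpin backgrounds, 19 of the 35 genes rose and 0 fell, in limma with Benjamini-Hochberg adjustment over all 15529 genes at an adjusted p under 0.05. Over all genes 5.36% rose and 7.21% fell, against 54.3% of these 35 that rose. The genes were chosen with earlier results of these data known, which may bear on this contrast. The median log2 change of the 35 genes was 0.33, and that of all genes was 0.01. The change was above 0 for 31 of the 35 and below 0 for 4. In 7 genes (NQO1, HMOX1, TXNRD1, GCLC, TXN, PGD and TALDO1) all 9 IL4I1 arrays lay above all 9 control arrays, which held for 0.67% of all genes. Leaving out any 1 array gave 17 to 22 genes called, and 16 of the 19 were called in every alternative that left out at most 1 array. The call of GSR was lost in 16 of the 18 fits without 1 array, that of SQSTM1 in 13 and that of UGDH in 2. ABCC4, at -0.25 with an adjusted p of 0.051, was called as falling in 3 alternatives that kept all arrays, the replicate block among them, and in 3 that left out 1 array. In bulk RNA, a change in every cell and a change in the mix of cell states cannot be told apart.

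**Figure D1:**
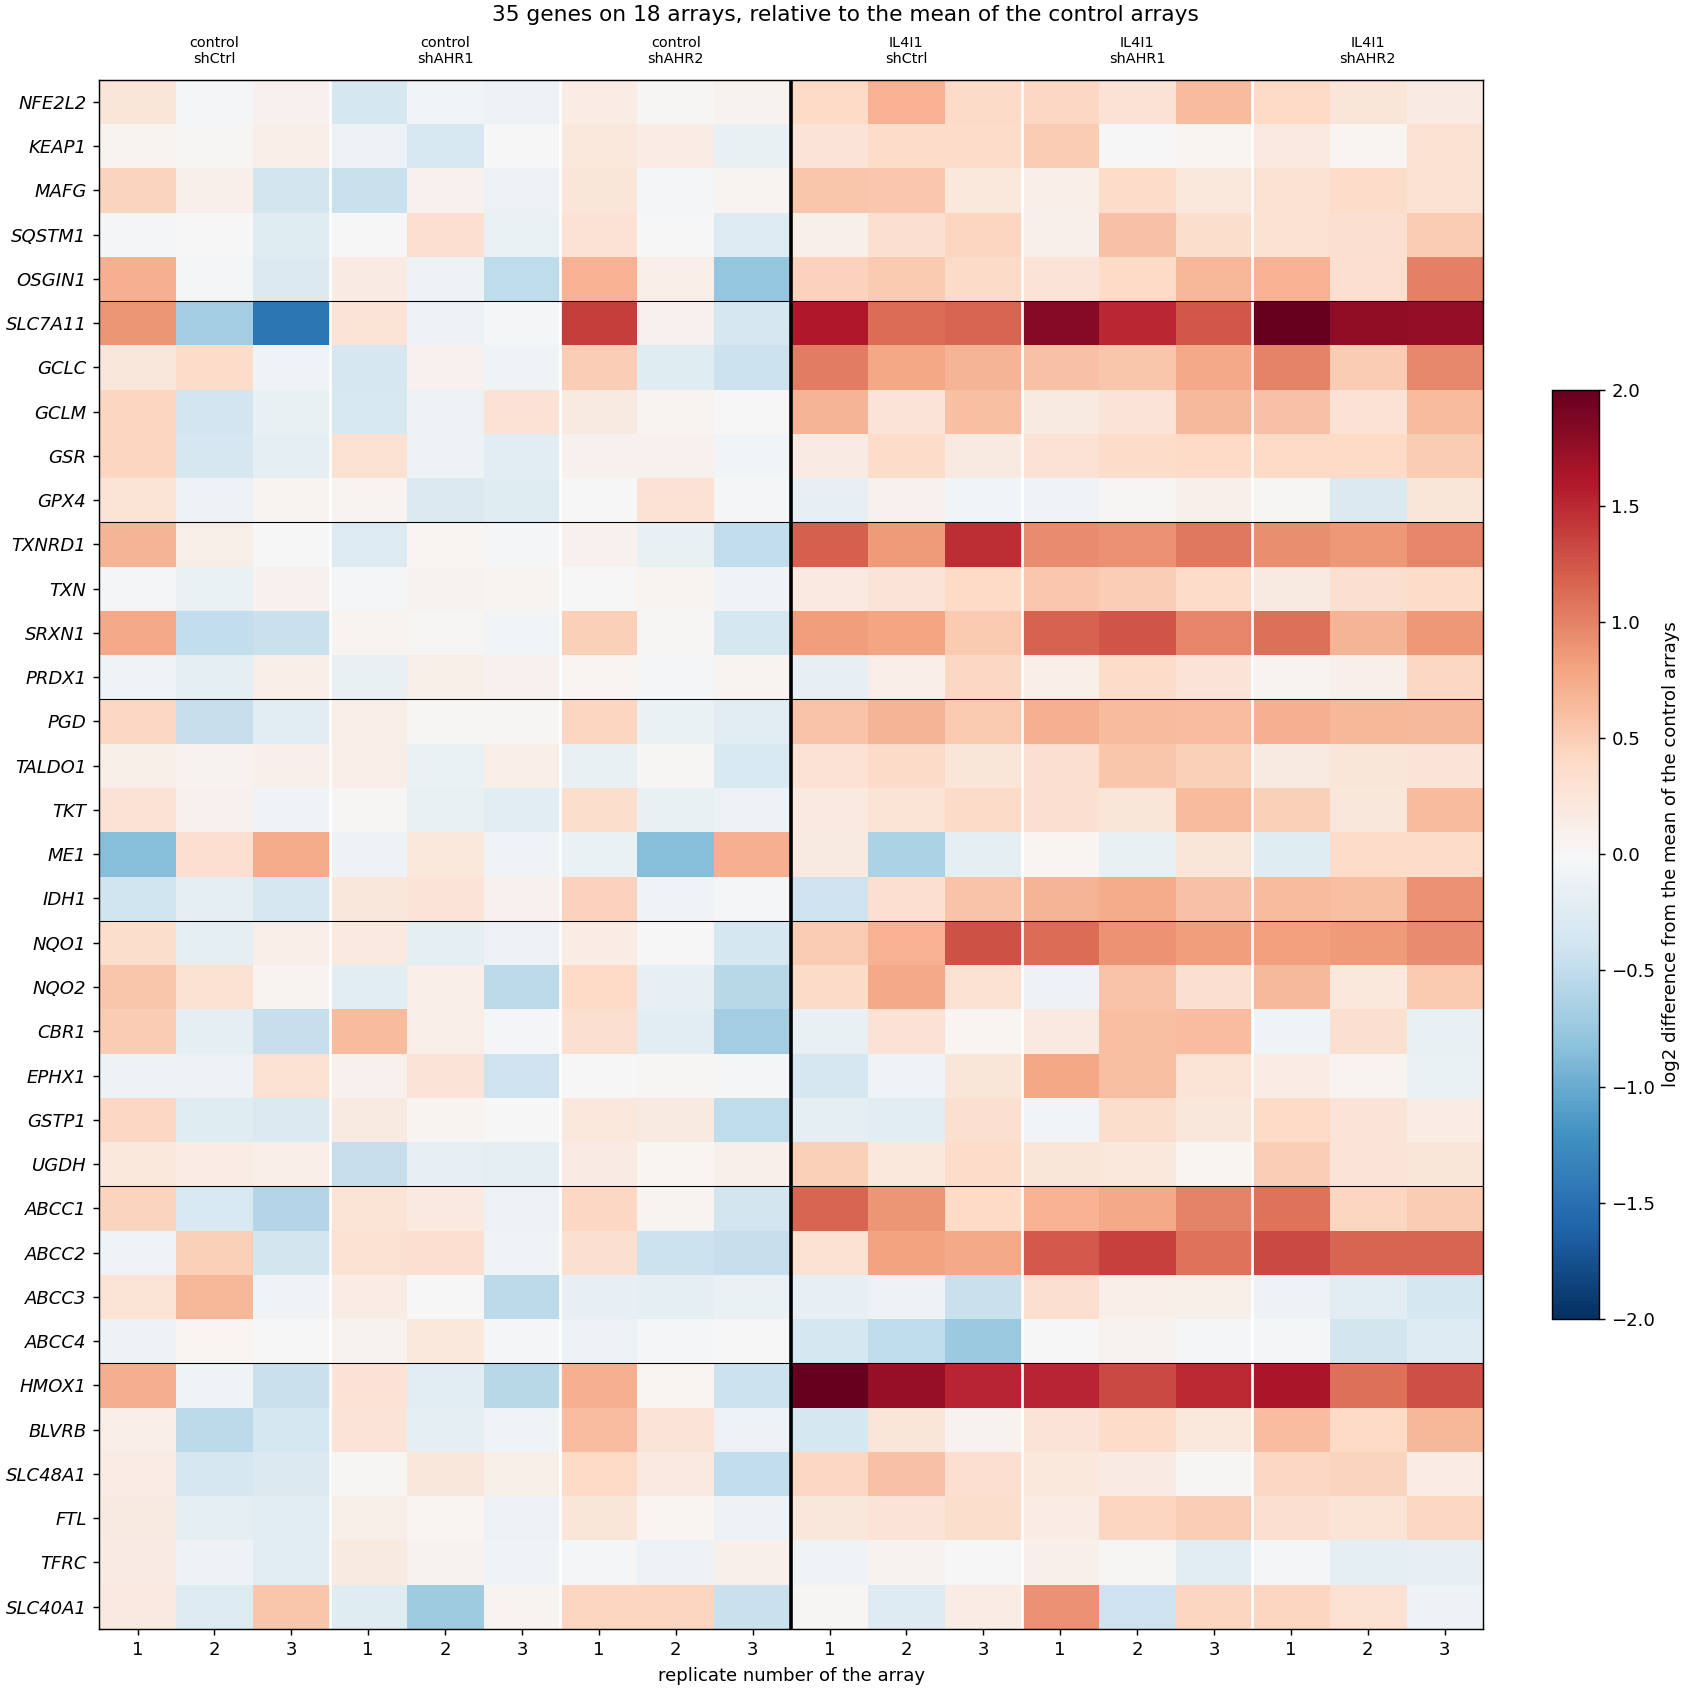
Expression of the 35 genes (rows, grouped by role between the thin lines) on the 18 arrays (columns), as log2 difference from the mean of the 9 control arrays. HMOX1 and SLC7A11 have the deepest red on the IL4I1 side, GPX4, TFRC and ME1 show no block of colour, and several genes are redder on control arrays numbered 1 than on numbers 2 and 3.

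**Figure D2:**
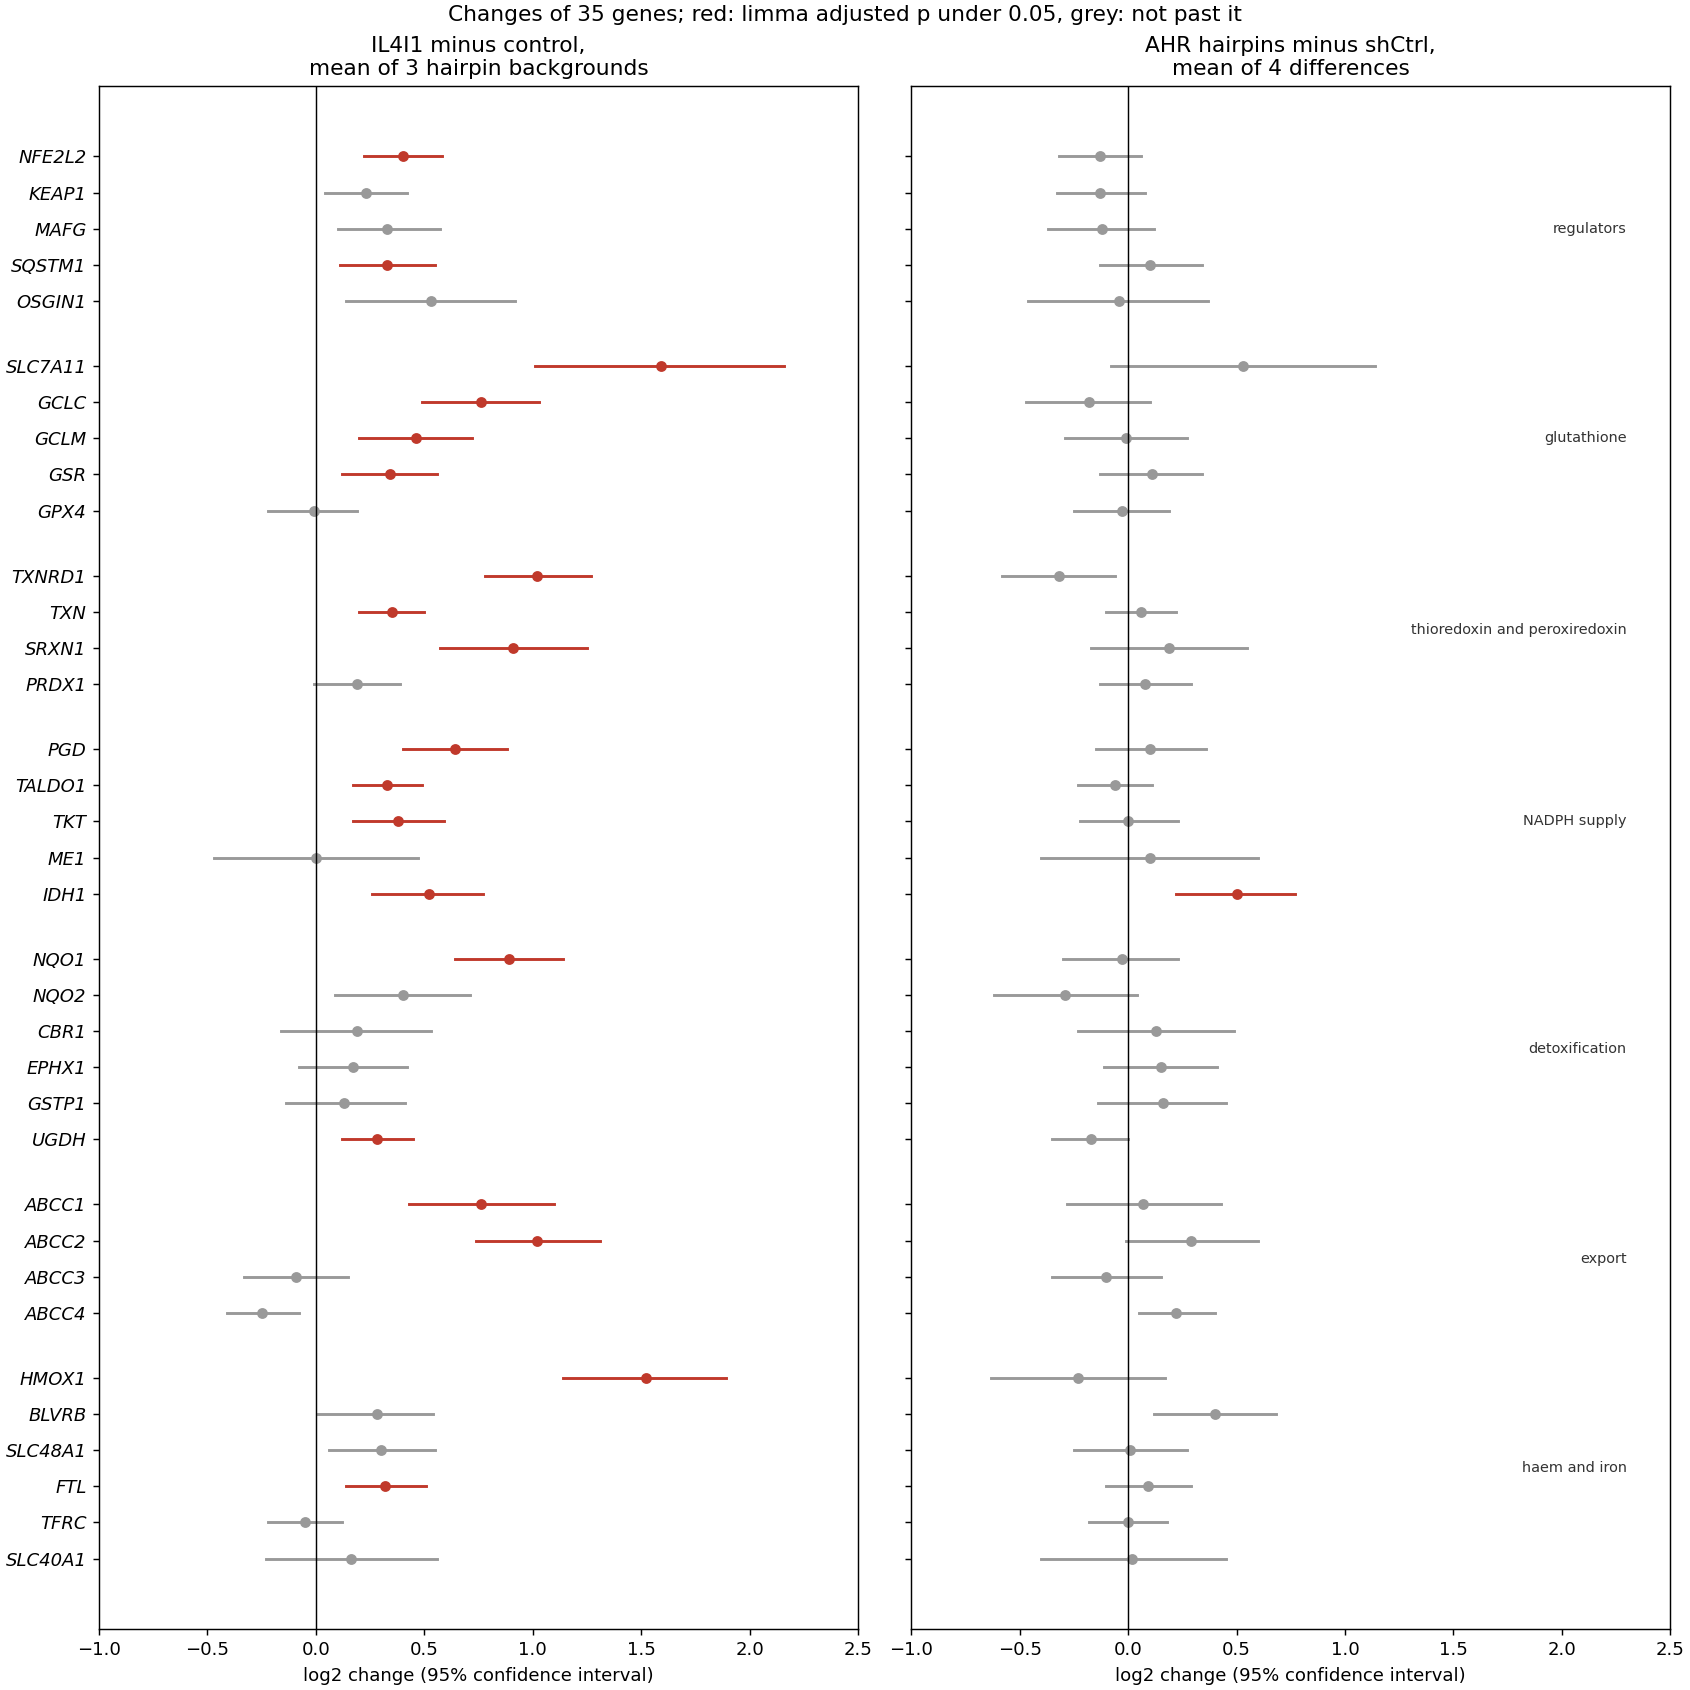
Log2 change with 95% confidence interval for each of the 35 genes with IL4I1 (left) and with the AHR hairpins (right), ordered by role. Red points passed limma's adjusted p under 0.05, which was so for 19 genes on the left and for IDH1 alone on the right.

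Among the regulators, 2 of 5 rose with IL4I1, NFE2L2 and SQSTM1. Array values here and below are log2 expression in the order of replicates 1 to 3, and changes are log2 changes with IL4I1 averaged over the 3 backgrounds ± SE, tested with limma. NFE2L2, the gene of NRF2 itself, read 8.86, 8.58 and 8.70 with shCtrl, 8.26, 8.56 and 8.50 with shAHR1 and 8.77, 8.65 and 8.69 with shAHR2 on control arrays. With IL4I1, NFE2L2 read 9.01, 9.31 and 9.00 with shCtrl, 9.03, 8.91 and 9.25 with shAHR1 and 9.02, 8.86 and 8.78 with shAHR2. The IL4I1 arrays were higher as a set but reached down into the control range with shAHR2, and the averaged change was 0.40 ± 0.08 (adjusted p = 0.0043). KEAP1 read 7.54, 7.52 and 7.63 with shCtrl, 7.38, 7.17 and 7.49 with shAHR1 and 7.71, 7.64 and 7.35 with shAHR2 on control arrays. With IL4I1, KEAP1 read 7.75, 7.86 and 7.86 with shCtrl, 8.00, 7.50 and 7.53 with shAHR1 and 7.68, 7.53 and 7.80 with shAHR2. The ranges overlapped, and the averaged change was 0.23 ± 0.09 (adjusted p = 0.12). SQSTM1 encodes p62, an autophagy receptor that can bind KEAP1. It read 11.18, 11.20 and 10.96 with shCtrl, 11.21, 11.54 and 11.06 with shAHR1 and 11.49, 11.20 and 10.93 with shAHR2 on control arrays. With IL4I1, SQSTM1 read 11.30, 11.51 and 11.62 with shCtrl, 11.30, 11.79 and 11.55 with shAHR1 and 11.50, 11.51 and 11.70 with shAHR2. Most IL4I1 arrays lay above most control arrays, and the change was 0.33 ± 0.10 (adjusted p = 0.046). MAFG, a small MAF partner of NRF2, and OSGIN1, an oxidative stress-induced growth inhibitor, did not pass the test, with changes of 0.33 ± 0.11 (adjusted p = 0.06) and 0.53 ± 0.18 (adjusted p = 0.074).

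In glutathione metabolism 4 of 5 genes rose, and GPX4 did not pass. SLC7A11, the cystine importer of system xc-, had the largest averaged change of the 35. It read 8.67, 7.09 and 6.33 with shCtrl, 8.05, 7.66 and 7.74 with shAHR1 and 9.17, 7.86 and 7.45 with shAHR2 on control arrays. With IL4I1, SLC7A11 read 9.38, 8.90 and 8.95 with shCtrl, 9.60, 9.28 and 9.02 with shAHR1 and 10.06, 9.56 and 9.53 with shAHR2. Control arrays ranged widely, from 6.33 to 9.17, and the highest of them lay above 2 IL4I1 arrays of the shCtrl background and 1 of the shAHR1 background. The averaged change was 1.59 ± 0.27 (adjusted p = 0.00092), or 3.0-fold. GCLC, the catalytic subunit of glutamate-cysteine ligase, read 7.69, 7.83 and 7.40 with shCtrl, 7.14, 7.55 and 7.39 with shAHR1 and 7.96, 7.22 and 7.04 with shAHR2 without IL4I1. With IL4I1, GCLC read 8.49, 8.25 and 8.15 with shCtrl, 8.05, 8.02 and 8.22 with shAHR1 and 8.46, 7.97 and 8.43 with shAHR2. All IL4I1 arrays lay above all control arrays, though the nearest pair stood at 7.97 and 7.96, and the change was 0.76 ± 0.13 (adjusted p = 0.00077). GCLM, the modifier subunit of the same ligase, read 8.23, 7.41 and 7.64 with shCtrl, 7.48, 7.68 and 8.08 with shAHR1 and 7.98, 7.85 and 7.80 with shAHR2 without IL4I1. With IL4I1, GCLM read 8.47, 8.06 and 8.39 with shCtrl, 7.98, 8.05 and 8.45 with shAHR1 and 8.38, 8.09 and 8.42 with shAHR2. Single arrays of all 3 control groups reached into the IL4I1 range, and the change was 0.46 ± 0.12 (adjusted p = 0.022). GSR, which reduces oxidised glutathione, read 9.49, 8.73 and 8.87 with shCtrl, 9.38, 8.97 and 8.86 with shAHR1 and 9.15, 9.15 and 9.01 with shAHR2 without IL4I1. With IL4I1, GSR read 9.23, 9.43 and 9.24 with shCtrl, 9.36, 9.43 and 9.46 with shAHR1 and 9.47, 9.47 and 9.57 with shAHR2. Replicate 1 of the shCtrl control cells was higher than 8 of the 9 IL4I1 arrays, and the change was 0.34 ± 0.10 (adjusted p = 0.043). GPX4, which uses glutathione to reduce lipid peroxides and restrains ferroptosis, read 10.14, 9.75 and 9.92 with shCtrl, 9.92, 9.57 and 9.62 with shAHR1 and 9.87, 10.15 and 9.82 with shAHR2 without IL4I1. With IL4I1, GPX4 read 9.70, 9.95 and 9.80 with shCtrl, 9.78, 9.89 and 9.97 with shAHR1 and 9.88, 9.57 and 10.11 with shAHR2. The ranges coincided, and the change was -0.01 ± 0.10 (adjusted p = 0.96) with a 95% interval from -0.22 to 0.19.

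**Figure D3:**
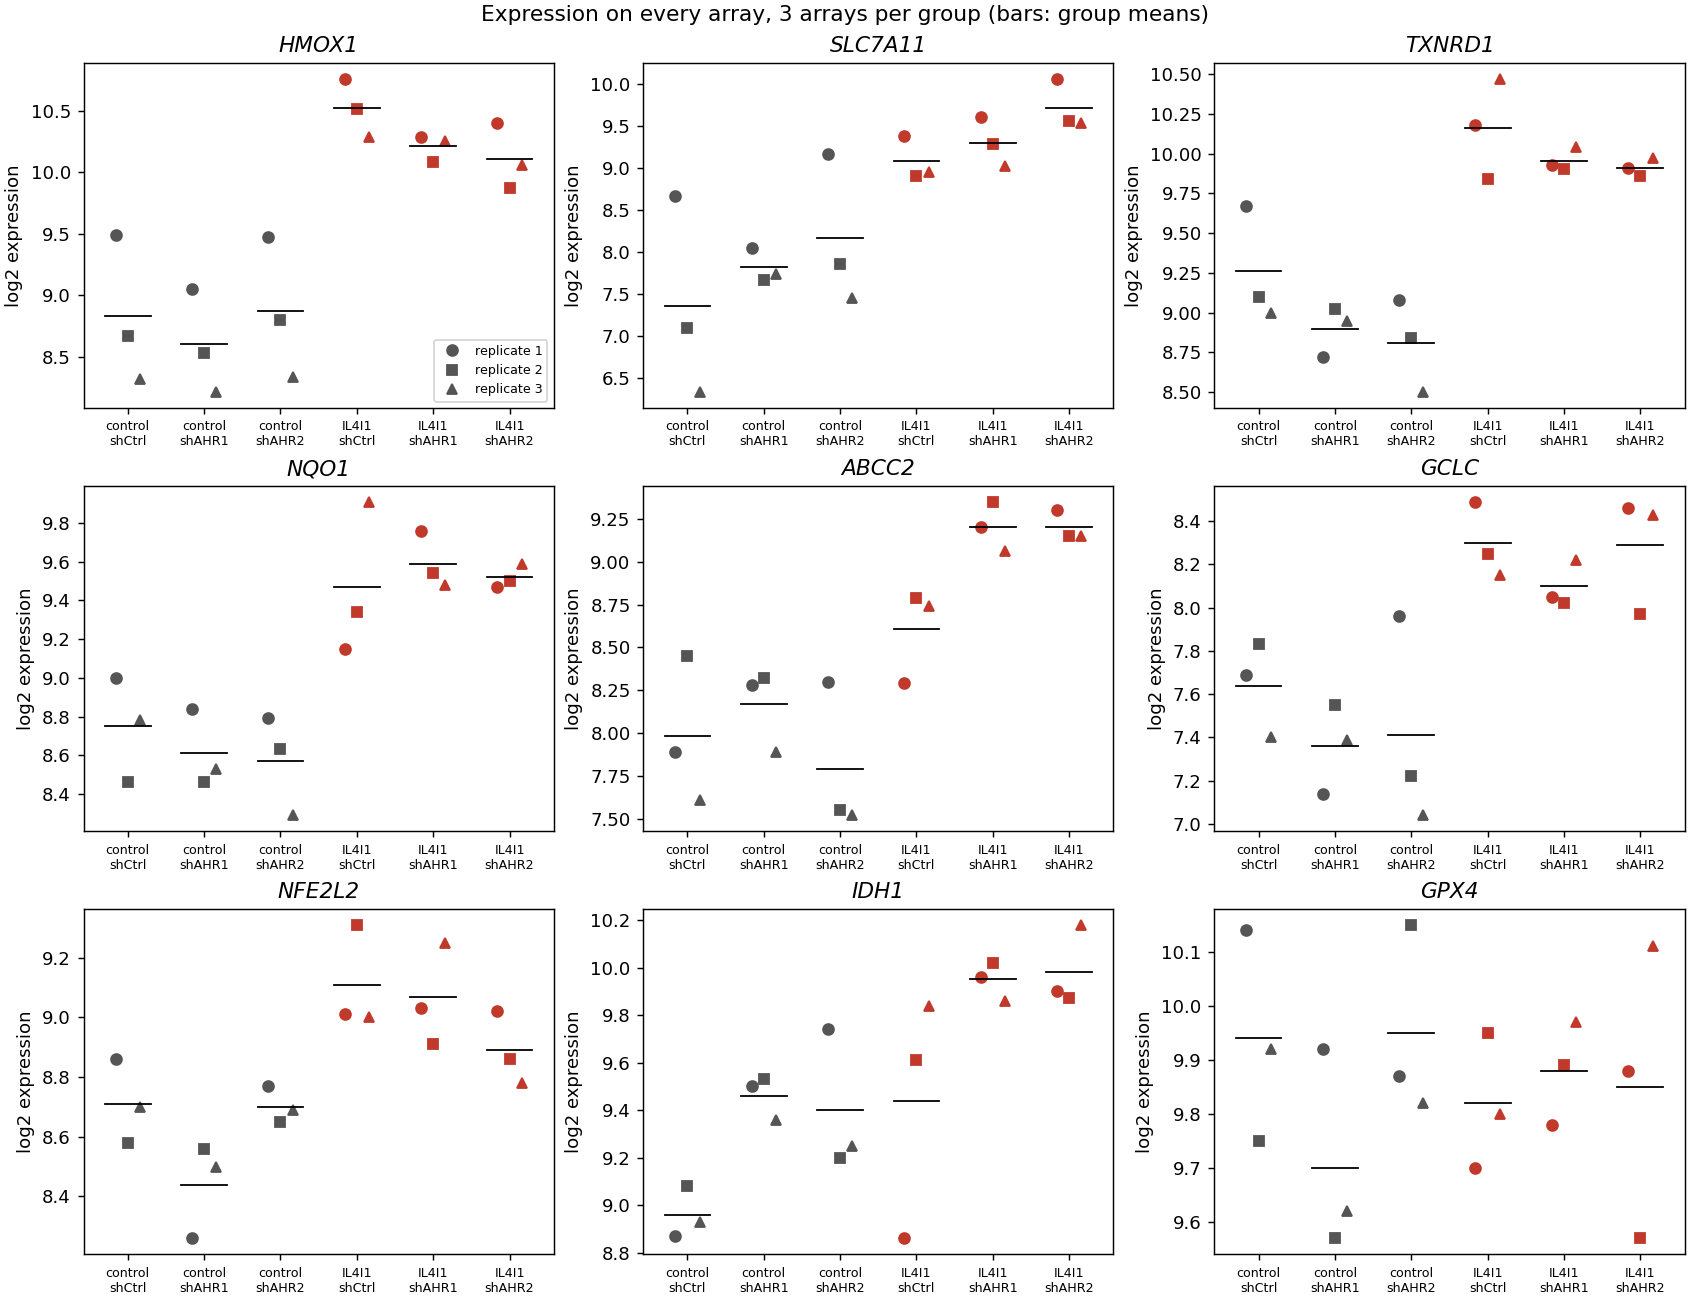
Log2 expression of 9 genes on every array, with 1 symbol per replicate number, grey for control and red for IL4I1, and a bar at each group mean. All red points lie above all grey points for HMOX1, TXNRD1, NQO1 and GCLC, while GPX4 shows no separation and IDH1 is highest in the IL4I1 groups with an AHR hairpin.

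In the thioredoxin and peroxiredoxin group 3 of 4 genes rose. TXNRD1, the cytosolic thioredoxin reductase, read 9.67, 9.10 and 9.00 with shCtrl, 8.72, 9.02 and 8.95 with shAHR1 and 9.08, 8.84 and 8.50 with shAHR2 without IL4I1. With IL4I1, TXNRD1 read 10.18, 9.84 and 10.47 with shCtrl, 9.93, 9.90 and 10.04 with shAHR1 and 9.91, 9.86 and 9.97 with shAHR2. The 2 sets of 9 arrays did not overlap, and the change was 1.02 ± 0.12 (adjusted p = 4.1e-05), or 2.03-fold. SRXN1, which restores over-oxidised peroxiredoxins, read 8.02, 6.77 and 6.81 with shCtrl, 7.31, 7.28 and 7.20 with shAHR1 and 7.74, 7.28 and 6.90 with shAHR2 without IL4I1. With IL4I1, SRXN1 read 8.09, 8.05 and 7.78 with shCtrl, 8.43, 8.51 and 8.23 with shAHR1 and 8.36, 7.93 and 8.12 with shAHR2. Replicate 1 of the shCtrl control cells reached into the IL4I1 range, and the change was 0.91 ± 0.16 (adjusted p = 0.0011). TXN, thioredoxin, read 10.58, 10.47 and 10.69 with shCtrl, 10.56, 10.66 and 10.65 with shAHR1 and 10.59, 10.65 and 10.52 with shAHR2 without IL4I1. With IL4I1, TXN read 10.79, 10.86 and 10.99 with shCtrl, 11.14, 11.09 and 10.96 with shAHR1 and 10.78, 10.92 and 10.96 with shAHR2. All IL4I1 arrays were higher, and the change was 0.35 ± 0.07 (adjusted p = 0.0032). PRDX1, a peroxiredoxin that reduces hydrogen peroxide, did not pass with a change of 0.19 ± 0.09 (adjusted p = 0.21).

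Of the 5 genes of NADPH supply 4 rose. PGD, of the oxidative pentose phosphate pathway, read 10.66, 9.80 and 10.04 with shCtrl, 10.38, 10.27 and 10.27 with shAHR1 and 10.69, 10.12 and 10.05 with shAHR2 without IL4I1. With IL4I1, PGD read 10.82, 10.94 and 10.78 with shCtrl, 10.97, 10.88 and 10.87 with shAHR1 and 10.96, 10.92 and 10.90 with shAHR2. The sets did not overlap, and the change was 0.64 ± 0.11 (adjusted p = 0.0012). TALDO1, transaldolase of the non-oxidative branch, read 10.35, 10.31 and 10.34 with shCtrl, 10.36, 10.10 and 10.37 with shAHR1 and 10.09, 10.25 and 9.92 with shAHR2 without IL4I1. With IL4I1, TALDO1 read 10.52, 10.61 and 10.48 with shCtrl, 10.56, 10.78 and 10.71 with shAHR1 and 10.41, 10.48 and 10.49 with shAHR2. Every IL4I1 array was higher than every control array, and the change was 0.33 ± 0.08 (adjusted p = 0.0076). TKT, transketolase of the same branch, read 10.59, 10.38 and 10.21 with shCtrl, 10.32, 10.15 and 10.07 with shAHR1 and 10.66, 10.15 and 10.18 with shAHR2 without IL4I1. With IL4I1, TKT read 10.50, 10.58 and 10.68 with shCtrl, 10.62, 10.54 and 10.94 with shAHR1 and 10.78, 10.53 and 10.94 with shAHR2. The sets overlapped through replicate 1 of the shCtrl and of the shAHR2 control cells, and the change was 0.38 ± 0.10 (adjusted p = 0.019). IDH1, the cytosolic NADP-dependent isocitrate dehydrogenase, read 8.87, 9.08 and 8.93 with shCtrl, 9.50, 9.53 and 9.36 with shAHR1 and 9.74, 9.20 and 9.25 with shAHR2 without IL4I1. With IL4I1, IDH1 read 8.86, 9.61 and 9.84 with shCtrl, 9.96, 10.02 and 9.86 with shAHR1 and 9.90, 9.87 and 10.18 with shAHR2. The 6 arrays with both IL4I1 and an AHR hairpin were the 6 highest, replicate 1 of the IL4I1 shCtrl cells was the lowest of all, and the change with IL4I1 was 0.52 ± 0.12 (adjusted p = 0.0096). ME1, malic enzyme, lay between 5.25 and 6.85 on all arrays, around or under the array median, with a change of 0.00 ± 0.22.

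Of 6 detoxification genes 2 rose, NQO1 and UGDH. NQO1, a quinone reductase, read 9.00, 8.46 and 8.78 with shCtrl, 8.84, 8.46 and 8.53 with shAHR1 and 8.79, 8.63 and 8.29 with shAHR2 without IL4I1. With IL4I1, NQO1 read 9.15, 9.34 and 9.91 with shCtrl, 9.76, 9.54 and 9.48 with shAHR1 and 9.47, 9.50 and 9.59 with shAHR2. The 2 sets of 9 arrays did not overlap, and the change was 0.89 ± 0.12 (adjusted p = 0.00014), or 1.85-fold. UGDH makes the UDP-glucuronate used in glucuronidation. It read 9.60, 9.54 and 9.52 with shCtrl, 8.94, 9.23 and 9.22 with shAHR1 and 9.56, 9.43 and 9.50 with shAHR2 without IL4I1. With IL4I1, UGDH read 9.87, 9.60 and 9.76 with shCtrl, 9.64, 9.60 and 9.44 with shAHR1 and 9.89, 9.65 and 9.63 with shAHR2. The shAHR1 control cells were lowest, the sets overlapped, and the change was 0.28 ± 0.08 (adjusted p = 0.023). NQO2, CBR1, EPHX1 and GSTP1, which act on quinones, carbonyls, epoxides and electrophiles, changed by 0.40, 0.19, 0.17 and 0.13 on the log2 scale, with adjusted p from 0.083 to 0.58, and did not pass.

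The 4 exporters of the ABCC family did not move alike. ABCC2, an exporter of glutathione and glucuronide conjugates, read 7.89, 8.45 and 7.61 with shCtrl, 8.28, 8.32 and 7.89 with shAHR1 and 8.30, 7.55 and 7.52 with shAHR2 without IL4I1. With IL4I1, ABCC2 read 8.29, 8.79 and 8.74 with shCtrl, 9.20, 9.35 and 9.06 with shAHR1 and 9.30, 9.15 and 9.15 with shAHR2. The 6 IL4I1 arrays with an AHR hairpin lay above all others, the IL4I1 shCtrl arrays partly overlapped the control arrays, and the change was 1.02 ± 0.14 (adjusted p = 0.00014). ABCC1, an exporter of glutathione conjugates and leukotrienes, read 7.82, 7.08 and 6.80 with shCtrl, 7.66, 7.58 and 7.26 with shAHR1 and 7.79, 7.43 and 7.01 with shAHR2 without IL4I1. With IL4I1, ABCC1 read 8.54, 8.27 and 7.78 with shCtrl, 8.08, 8.14 and 8.37 with shAHR1 and 8.46, 7.81 and 7.89 with shAHR2. The sets crossed only at their edges, between 7.78 and 7.82, and the change was 0.76 ± 0.16 (adjusted p = 0.0039). ABCC4, an exporter of cyclic nucleotides and prostaglandins, read 7.95, 8.08 and 8.05 with shCtrl, 8.11, 8.25 and 8.00 with shAHR1 and 7.93, 8.00 and 8.03 with shAHR2 without IL4I1. With IL4I1, ABCC4 read 7.70, 7.53 and 7.31 with shCtrl, 8.06, 8.11 and 8.00 with shAHR1 and 8.00, 7.67 and 7.78 with shAHR2. In shCtrl cells the 3 IL4I1 arrays lay below the 3 control arrays, a pattern whose share over all genes was not counted. ABCC4 fell there by 0.51 ± 0.14 (limma adjusted p = 0.044), a call kept in 6 alternatives and lost in 7. The averaged change was -0.25 ± 0.08 (adjusted p = 0.051). The IL4I1 difference of ABCC4 was 0.39 ± 0.17 higher under both hairpins together than in shCtrl cells, which did not pass (limma adjusted p = 0.88). ABCC3 changed by -0.09 ± 0.11 (limma adjusted p = 0.68).

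Of 6 genes of haem and iron 2 rose, HMOX1 and FTL. HMOX1, haem oxygenase 1, which opens the haem ring and frees its iron, read 9.49, 8.67 and 8.32 with shCtrl, 9.05, 8.53 and 8.21 with shAHR1 and 9.47, 8.80 and 8.33 with shAHR2 without IL4I1. With IL4I1, HMOX1 read 10.76, 10.51 and 10.29 with shCtrl, 10.29, 10.08 and 10.25 with shAHR1 and 10.40, 9.87 and 10.06 with shAHR2. The lowest IL4I1 array, at 9.87, stood above the highest control array, at 9.49, and the change was 1.52 ± 0.18 (adjusted p = 5.5e-05), or 2.86-fold. FTL, the ferritin light chain, read 12.49, 12.11 and 12.09 with shCtrl, 12.42, 12.35 and 12.19 with shAHR1 and 12.55, 12.34 and 12.19 with shAHR2 without IL4I1. With IL4I1, FTL read 12.53, 12.56 and 12.65 with shCtrl, 12.45, 12.73 and 12.79 with shAHR1 and 12.63, 12.58 and 12.72 with shAHR2. Replicate 1 of the shCtrl and of the shAHR2 control cells reached into the IL4I1 range, and the change was 0.32 ± 0.09 (adjusted p = 0.021). TFRC, the transferrin receptor for iron uptake, read 9.95, 9.68 and 9.58 with shCtrl, 9.96, 9.86 and 9.72 with shAHR1 and 9.74, 9.67 and 9.89 with shAHR2 without IL4I1. With IL4I1, TFRC read 9.72, 9.86 and 9.78 with shCtrl, 9.88, 9.81 and 9.58 with shAHR1 and 9.75, 9.60 and 9.62 with shAHR2. The ranges coincided, and the change was -0.05 ± 0.08 (adjusted p = 0.76) with a 95% interval from -0.22 to 0.12. SLC40A1, ferroportin, the iron exporter, read 6.02, 5.56 and 6.38 with shCtrl, 5.59, 5.11 and 5.89 with shAHR1 and 6.26, 6.25 and 5.39 with shAHR2 without IL4I1. With IL4I1, SLC40A1 read 5.85, 5.57 and 5.98 with shCtrl, 6.74, 5.41 and 6.25 with shAHR1 and 6.26, 6.13 and 5.73 with shAHR2. It lay near or under the array median throughout, and the change was 0.16 ± 0.19 (adjusted p = 0.64). BLVRB, a biliverdin reductase, and SLC48A1, a haem transporter, did not pass, with changes of 0.28 ± 0.12 (adjusted p = 0.17) and 0.30 ± 0.12 (adjusted p = 0.11).

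Within single hairpin backgrounds fewer genes passed. In shCtrl cells 3 of 35 rose (HMOX1, TXNRD1 and SLC7A11) and 1 fell (ABCC4), where 2.02% of all genes rose and 2.56% fell. In shAHR1 cells 5 rose (NFE2L2, NQO1, HMOX1, TXNRD1 and ABCC2), against 0.56% of all genes, and 0 fell. In shAHR2 cells 3 rose (NQO1, TXNRD1 and ABCC2), against 0.335% of all genes, and 0 fell. At an unadjusted p under 0.05, 17, 17 and 15 of the 35 passed in these 3 limma comparisons. Of all 15529 genes, 2932, 2046 and 1855 did so. The medians of the 35 genes were 0.30, 0.43 and 0.31 on the log2 scale, with 0.02, -0.02 and 0.01 for all genes. These 3 comparisons share no arrays, though 13 of 18 arrays deviated most like arrays of their own replicate number in other groups. Changes were above 0 in each comparison for 28 of the 35 genes, a share that was not counted over all genes. Among the 28 were all 19 genes that rose on average. Those 19 were picked by the mean of these same 3 differences, so their signs are no separate test. Single arrays moved the counts of calls. In shCtrl cells the 4 calls became 10 without control replicate 1, 1 without control replicate 2 or 3, and 2 without any 1 of the IL4I1 arrays. In shAHR1 cells the 5 became 1, 2 and 0 without control replicates 1, 2 and 3, and 1, 0 and 0 without IL4I1 replicates 1, 2 and 3. In shAHR2 cells the 3 became 7, 0 and 0 without control replicates 1, 2 and 3, and 0, 0 and 1 without IL4I1 replicates 1, 2 and 3.

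**Figure D4:**
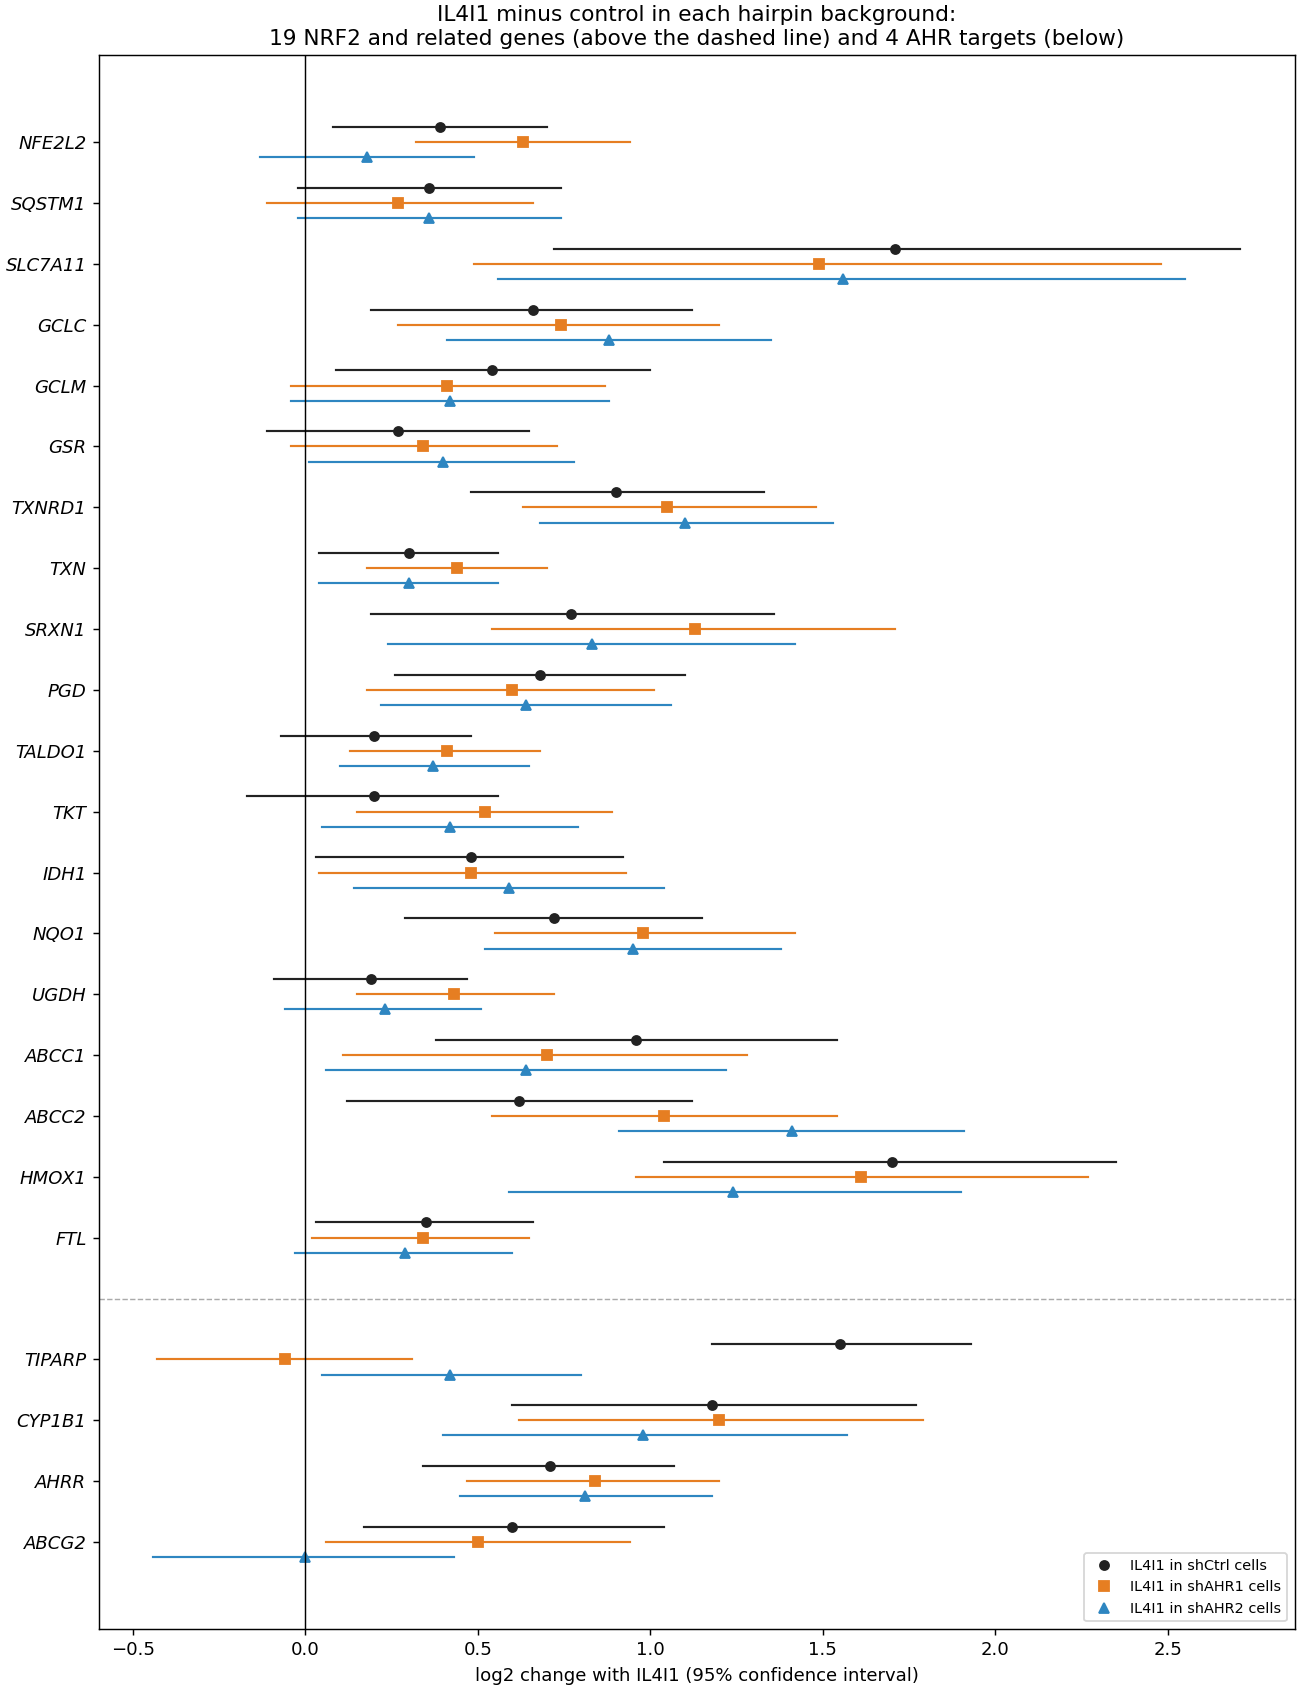
Log2 change with IL4I1 and its 95% confidence interval in shCtrl, shAHR1 and shAHR2 cells, for the 19 genes that rose on average and, below the dashed line, 4 of the 5 measured AHR targets. The 3 intervals of each of the 19 genes overlap, whereas the TIPARP interval in shCtrl cells lies apart from both hairpin intervals.

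Whether the IL4I1 difference depended on AHR was tested as an interaction. None of the 35 genes passed for shAHR1, shAHR2 or both hairpins together, where limma called 0%, 0.0129% and 0.0193% of all genes. At an unadjusted p under 0.05, 3, 1 and 2 of the 35 passed, as did 901, 670 and 836 of all 15529 genes. The members were ABCC3, ABCC4 and EPHX1 for shAHR1, ABCC2 for shAHR2, and ABCC3 and ABCC4 for both hairpins together. For shAHR2 the estimate of ABCC2, among the 19 genes that rose, was 0.79 (0.08 to 1.49). For both hairpins together ABCC3 had 0.66 (0.16 to 1.16) and ABCC4 0.39 (0.04 to 0.75). With both hairpins together the estimates ran from -0.45 to 0.66, and the lowest adjusted p was 0.78, for ABCC3. For NQO1 the IL4I1 difference was 0.25 larger under the hairpins on the log2 scale, with a 95% interval from -0.28 to 0.78. For HMOX1 the estimate was -0.27 (-1.07 to 0.53), for TXNRD1 0.18 (-0.34 to 0.69) and for SLC7A11 -0.19 (-1.41 to 1.03). With both hairpins together, all 19 intervals of the genes that rose spanned 0. Their widest bounds were -1.41, for SLC7A11, and 1.21, for ABCC2, and others were narrower, such as -0.24 to 0.39 for TXN and -0.15 to 0.52 for TALDO1. In the same fit TIPARP, an AHR target that ends AHR signalling, had an interaction of -1.37 ± 0.22 (-1.83 to -0.92, limma adjusted p = 0.048), with an IL4I1 change of 1.55 in shCtrl cells and of -0.06 and 0.42 under shAHR1 and shAHR2. CYP1B1, a second AHR target, had an interaction of -0.09 (-0.80 to 0.63) and AHRR, the AHR repressor, 0.12 (-0.33 to 0.56). For the other two measured AHR targets it was -0.36 (-0.89 to 0.18, ABCG2) and 0.24 (-0.41 to 0.89, ALDH3A1).

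Few of these genes were called for the AHR hairpins by themselves, with counts near the shares over all genes. Without IL4I1, 0 of 35 passed under shAHR1 and 0 under shAHR2, where 0.406% and 0.734% of all genes passed. With IL4I1, 0 of 35 passed under either hairpin, where 1.55% and 1.26% of all genes passed. The limma counts at an unadjusted p under 0.05 were 3, 3, 5 and 4 in that order. Over all 15529 genes they were 1708, 1719, 1937 and 1820. Averaged over both hairpins and both IL4I1 states, IDH1 alone rose, by 0.50 ± 0.13 (limma adjusted p = 0.033), and 0 fell. Of all genes 3.43% rose and 1.93% fell. An unadjusted p under 0.05 was reached by 4 of the 35 and by 2744 of all 15529 genes. The call of IDH1 was lost in 8 of the 18 fits without 1 array: without any 1 of the 3 shCtrl control arrays, replicate 1 of the shAHR1 control cells, replicate 1 or 2 of the shAHR1 IL4I1 cells, replicate 3 of the shAHR2 IL4I1 cells, or replicate 1 of the shCtrl IL4I1 cells, where the change was 0.35. NQO1 changed by -0.03, with a 95% interval from -0.30 to 0.23. In the same comparison 4 of the 5 measured AHR targets fell, TIPARP, CYP1B1, AHRR and ABCG2, by 1.05, 1.15, 0.86 and 1.16 on the log2 scale, and ALDH3A1 had a change of -0.09 (adjusted p = 0.83). In no member did all 12 hairpin arrays lie above the 6 shCtrl arrays, which held for 0.419% of all genes. Between shAHR1 and shAHR2, 0 of the 35 genes passed without IL4I1 and 0 with it, and 0% of all genes passed limma in either comparison. At an unadjusted p under 0.05, 1 of the 35 passed in each, and 1070 and 1131 of all genes did.

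The study's own contrast sets IL4I1 cells with an AHR hairpin against shCtrl cells without IL4I1, and so holds both changes at once. With shAHR1, 8 of 35 rose and 0 fell, against 2.41% of all genes that rose. With shAHR2, 6 of 35 rose and 0 fell, against 2.16%. NQO1, HMOX1, SLC7A11, PGD, IDH1 and ABCC2 passed in both, and SRXN1 and TXN with shAHR1 alone. Between shAHR1 and shAHR2 with IL4I1, SRXN1 differed by 0.25 ± 0.28 (limma adjusted p = 0.93). TXN differed there by 0.17 ± 0.12 (limma adjusted p = 0.86), and neither passed. SLC7A11 changed by 1.94 ± 0.47 with shAHR1 and by 2.35 ± 0.47 with shAHR2, IDH1 by 0.99 ± 0.21 and 1.02 ± 0.21, and ABCC2 by 1.22 ± 0.24 and 1.21 ± 0.24. Both contrasts use the same 3 shCtrl control arrays, as does the comparison of IL4I1 in shCtrl cells. The 8 calls became 11, 2 and 1 without shCtrl control replicates 1, 2 and 3, and 2, 1 and 3 without IL4I1 replicates 1, 2 and 3. The 6 calls became 12, 2 and 2 without the same control arrays, and 2, 3 and 2 without IL4I1 replicates 1, 2 and 3.

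Control arrays numbered 1 read high for many of these genes. In all 3 control groups replicate 1 was the highest array for 13 of the 35 (37.1%), among them NQO1, HMOX1, SLC7A11, SRXN1, PGD and FTL, and for 9.34% of all genes. Among the IL4I1 groups this held for 3 of the 35 and for 5.41% of all genes. With replicate 1 left out of every group, an alternative chosen after these arrays were seen to be high, 20 genes were called for IL4I1 on average, of which 17 were among the 19, and IDH1 was no longer called for the hairpins, with a change of 0.29.

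Wider lists of the same pathways were set beside the 5.36% of all genes that rose, the 7.21% that fell and the median change of 0.01 over all genes. These lists too were chosen with earlier results of these data known. Of 10 further partners and regulators of NRF2, 3 rose with IL4I1 on average and 0 fell: MAFK by 0.82 and MAFF by 0.66, both small MAF proteins, and the related factor NFE2L1 by 0.52. The median of these 10 was 0.03. Of 15 further NRF2 targets, 6 rose and 0 fell, with a list median of 0.32. These were AIFM2, a ferroptosis suppressor that reduces coenzyme Q, by 0.72 ± 0.15 (limma adjusted p = 0.0036), the aldo-keto reductase AKR1C3 by 0.66, SLC3A2, the partner chain of SLC7A11, by 0.52, G0S2 by 0.50, PTGR1 by 0.37 and NR0B1 by 0.32. Of 22 genes of glutathione synthesis and use, 3 rose and 1 fell, with a median of -0.09. CHAC1, which degrades glutathione, rose by 1.01 ± 0.24 (limma adjusted p = 0.011), the transferases MGST1 and GSTA4 rose by 0.56 and 0.49, and GSTM4 fell by 0.55. Of 29 genes of iron and haem handling, 2 rose and 2 fell, with a median of 0.00, so these counts lay near those over all genes. ALAS1 and HEBP1, for the first step of haem synthesis and for haem binding, rose by 0.32 and 0.52, and ALAD and UROS, for later steps of synthesis, fell by 0.50 and 0.40.

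Other programmes moved beside these genes in the averaged comparison, where 5.36% of all genes rose and 7.21% fell. Of 13 ATF4 targets 7 rose and 0 fell, with DDIT3 at 1.53, TRIB3 at 1.25, SESN2 at 0.86 and ATF3 at 0.82. Each gene was centred on its mean over all arrays. The list's median per array then lay between -0.93 and 0.08 on control arrays and between 0.14 and 0.48 on IL4I1 arrays. CHAC1 stands in both this list and the glutathione list, and SLC7A11 is known as a target of ATF4 as well as of NRF2. All 16 cell cycle genes fell, with a median change of -1.84. Centred the same way, their median per array lay between 0.11 and 1.71 on control arrays and between -1.60 and -0.18 on IL4I1 arrays. Of 5 AHR targets 3 rose. In shCtrl, shAHR1 and shAHR2 cells taken singly, 3, 0 and 0 ATF4 targets rose, with list medians of 0.61, 0.22 and 0.50. Of the cell cycle genes 13, 8 and 0 fell there, with medians of -1.99, -1.98 and -1.55, and 3, 2 and 1 AHR targets rose. In the same 3 comparisons limma called 711, 204 and 95 of all 15529 genes in either direction. The shares of all genes that rose were 2.02%, 0.56% and 0.335%, so fewer calls were made over all genes as well. The part of these programmes in the changes of the 35 genes was not tested.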

How the data were processed

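Values were read from the authors' deposited table of log2 expression per probe set. Per the submitters' processing notes they came from RMA in the oligo package, in a version not given in the sources used here. This method makes the arrays' distributions alike, so a shift of all transcripts cannot be seen. Of 18913 probe sets, 15598 had 1 symbol, 870 several and 2445 were unlisted in the platform annotation. Of the symbols, 1173 were updated through RefSeq (GRCh38.p14), and the brightest probe set of a gene was kept. No column was left unmapped (0).

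The 15529 genes entered 1 linear model of 6 group means over all 18 arrays (limma 3.58.1 in R 4.3.3, lmFit and eBayes), with Benjamini-Hochberg adjustment over all genes and errors as standard errors. No filter on dim genes was used, and the mean over all arrays of each of the 35 measured members lay above the 25th percentile of such means (5.80). The fits were tested on simulated data. IL4I1 averaged is the mean of the 3 IL4I1 minus control differences, and hairpins averaged the mean of both hairpins minus shCtrl over both IL4I1 states. Precision is limited by having 3 arrays in each group.

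Members and lists were chosen with earlier results of these data known. Values on every array are given for members called in at least 1 comparison and for NFE2L2, KEAP1, NQO1, GPX4, FTL, TFRC and SLC40A1, and for wider lists at most 6 called genes by lowest adjusted p. The 3 arrays of a group are described as independent experiments. The p-values rest on 1 spread per gene, taken within groups, shared by all 6 groups and moderated over all genes. Whether it holds any variation between separately made stable lines cannot be told, as the number of infections is unsaid. Alternatives were the replicate block, a trended and robust prior, a filter on dim genes, array centring, averaged probe sets, only the groups compared, and each array left out.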

Additional observations from a re-analysis of the deposited data

How the results depend on the processing

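For IL4I1 on average, 19 to 21 members were called in every alternative that kept all arrays, 17 to 22 without any 1 array and 20 without replicate 1 of every group. For members in the comparisons that called them, 634 alternative values kept their call and direction, 184 kept the direction but lost the call, and none turned direction. Every alternative reused all or most of the arrays compared. Each member had 1 probe set, so averaging probe sets left its values unchanged. The kept directions are therefore no separate test. Fitting only the groups compared called 0 members for IL4I1 in shCtrl cells, 3 in shAHR1 and 0 in shAHR2 cells, and 1 and 0 for the shAHR1 and shAHR2 contrasts against baseline, with fewer arrays behind each spread. The trended and robust prior called 7 for IL4I1 in shCtrl cells, 5 in shAHR2 cells, 1 for shAHR1 with IL4I1 and 2 for the hairpins averaged. Without dim genes, with fewer genes tested, 7 and 1 were called for IL4I1 in shCtrl cells and for shAHR1 with IL4I1. Without replicate 1 of every group, added after seeing the data, 1 was called in shAHR1 and 1 in shAHR2 cells and 0 for the hairpins averaged. The causes of the other shifts were not tested. Leaving out 1 array gave 1 to 10 calls in shCtrl, 0 to 2 in shAHR1 and 0 to 7 in shAHR2 cells, 0 to 2 for the hairpins averaged, 1 to 11 and 2 to 12 for the 2 contrasts against baseline, and 0 elsewhere.

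Replicate numbers were not taken as pairing the arrays: same-numbered arrays deviated together with correlations from -0.132 to 0.324, of which 12 of 45 were over 0.1, and 13 of 18 arrays correlated best with their own number, a hint from the data only. With the replicate block, 20 members were called for IL4I1 on average, the same 19 that rose and ABCC4, which fell, and 5 in shAHR2 cells. ABCC4 was also called as falling with the trended and robust prior, without dim genes, and without replicate 1 of the shCtrl control, shCtrl IL4I1 or shAHR2 IL4I1 cells.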

Other observations

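In the wider lists, the AHR hairpins on average raised IREB2, an iron-regulatory RNA-binding protein, by 0.67 ± 0.13 (log2, limma adjusted p = 0.0056) and SLC39A8, a metal importer, by 0.44 ± 0.10 (adjusted p = 0.016). SLC25A37, which carries iron into mitochondria, fell by 0.55 (adjusted p = 0.039). Of 15 further NRF2 targets 0 fell and 2 rose, SESN1 by 0.53 and ETFDH by 0.49. Of 13 ATF4 targets 0 fell and 1 rose, MTHFD2, of mitochondrial folate metabolism, by 0.52. The other measured genes of iron and haem handling did not pass in this comparison, where 2 of 29 rose and 1 fell, against 3.43% and 1.93% of all genes.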
